A study of Mus musculus with 5 samples.

Results

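The FOXO transcription factors Foxo1, Foxo3 and Foxo4, the FOXO target genes Txnip, Tsc22d3, Pik3ip1, Irs2 and Ccng2, and the kinase gene Akt1 make up the set described here, 9 genes of the 39179 in a count table of mouse fetal erythroid cells. They were taken by symbol from that table, and all 9 were found. The cells were sorted for TER119, a surface protein of maturing erythroid cells, from fetal livers of untreated C57BL/6 embryos at 14.5 days post conception. The 2 KO libraries came from embryos labelled Csnk2bfl/fl Vav+/Cre and the 3 control libraries from embryos labelled Csnk2b+/+ Vav+/Cre, so both groups carry the Vav-driven Cre recombinase that acts in blood-forming cells. Csnk2b is the gene of CK2 beta, the regulatory subunit of the kinase CK2. The labels do not say whether a library holds 1 embryo or a pool, or which libraries share a litter, so the p-values speak only of the spread among these libraries.

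In cells exposed to insulin, stem cell factor or erythropoietin, the lipid kinase PI3K recruits AKT to the membrane, and activated AKT phosphorylates FOXO proteins, which then bind YWHA proteins and stay in the cytoplasm. When AKT activity falls, FOXO proteins enter the nucleus and switch on genes for cell cycle arrest, antioxidant defence, autophagy and insulin sensitivity. FOXO3 is known in erythroid cells for restraining oxidative stress and for its part in maturation. CK2 is known to phosphorylate AKT1. The comparison of KO with control asks how RNA of these genes differs when the CK2 beta subunit gene is deleted. RNA levels do not measure the phosphorylation that controls AKT and FOXO proteins.

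FOXO proteins recognise DNA containing the letters GTAAACA. RefSeq promoter windows (build GRCm38.p6, 250 bases before to 50 after a transcription start) were found for 8 of the 9 genes, 11 windows in all; Foxo4 had no entry. The letters GTAAACA, on either strand, occurred in 1 window of Txnip and 1 of the windows of Akt1, and in 3.65% of all 32851 promoter windows of this length. The match in Txnip begins 121 bases before the start, and the match in Akt1, read on the other strand as TGTTTAC, begins 161 bases before it. Both windows are shown because they are the ones among these genes that hold the letters, which are in capitals. A match describes the letters and not a site of binding.
Txnip, chr3:96557707-96558006, plus strand: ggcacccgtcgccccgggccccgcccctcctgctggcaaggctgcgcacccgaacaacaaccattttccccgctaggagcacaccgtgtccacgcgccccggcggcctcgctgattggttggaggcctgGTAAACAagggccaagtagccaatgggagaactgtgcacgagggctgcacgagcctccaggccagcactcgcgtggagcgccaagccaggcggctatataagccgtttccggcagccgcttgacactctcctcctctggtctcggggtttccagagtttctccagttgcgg
Akt1, chr12:112674835-112675134, minus strand: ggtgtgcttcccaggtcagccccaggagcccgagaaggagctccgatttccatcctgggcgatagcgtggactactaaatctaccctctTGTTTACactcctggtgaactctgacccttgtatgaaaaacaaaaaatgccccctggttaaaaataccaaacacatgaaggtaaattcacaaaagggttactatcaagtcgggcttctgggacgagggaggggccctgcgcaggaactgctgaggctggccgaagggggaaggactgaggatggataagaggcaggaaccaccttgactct
The 3 windows of Tsc22d3, which has alternative starts that the gene-level counts add together, held none of the letters searched. The E-box CACGTG, found in 7.15% of all windows, occurred in the Irs2 window, 44 bases before the start. The palindromic glucocorticoid receptor motif, searched with its full letters and found in 3 of all windows, occurred in none of the windows of these genes.

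Library totals were 13187094 and 14986630 counts in KO replicates 1 and 2, against 13543392 to 15366021 counts in the controls, so 1 CPM (a count scaled to a library of 1000000 counts) rests on 13.2 to 15.4 counts. Across 13000 genes, log2(CPM + 1) had a correlation of 0.992 for the KO pair and of 0.996 to 0.997 for pairs of controls. Control replicate 3 had 454 counts of the Y-linked gene Eif2s3y, against 0 in every other library. It had 367 counts of the Y-linked gene Ddx3y, against at most 2 elsewhere. Its Xist level was 547 CPM, against 788 to 1026 CPM elsewhere, so this library differs from the others in sex-linked RNA. Foxo4 and Tsc22d3 lie on the X chromosome, and their values without control replicate 3 are given below. Csnk2b itself stood at 112 and 95.6 CPM in KO replicates 1 and 2, against 186, 186 and 169 CPM in control replicates 1, 2 and 3, a 1.74-fold decrease in KO (edgeR adjusted p = 0.0018). Slc4a1, the gene of the red cell anion exchanger band 3, stood at 15773 CPM or more in each library. Of 9 erythroid markers tested 0 passed in edgeR or limma-voom. In edgeR 3 had an unadjusted p under 0.05 with a lower mean in KO, beside 9.48% of all 13000 genes tested. DESeq2 called 3 lower, beside 341 of the 21077 genes in its fit. In 5 of the 9 both KO libraries lay below all controls, beside 19.3% of all genes tested. The median log2 fold change of the 9 was -0.21, beside 0.01 over all genes tested. Markers of other blood and liver cells were also counted, with summed levels of 91.5 and 84.8 CPM in KO and 116 to 130 CPM in control for 11 macrophage genes, 7.13 to 9.53 CPM in KO and 8.31 to 11.5 CPM in control for 10 lymphoid genes, and 611 to 732 CPM in KO and 535 to 766 CPM in control for 10 granulocyte and mast cell genes. The summed level was 262 and 314 CPM in KO and 222 to 352 CPM in control for 9 hepatocyte genes, and 67.2 and 98.2 CPM in KO and 63.7 to 70.5 CPM in control for 6 megakaryocyte genes. Of the macrophage genes 5 of 11 fell in KO, beside 1.83% of all 13000 genes tested, and none was at 0. The number that fell was 2, 0 and 1 with control replicate 1, 2 and 3 left out. Over all genes, those fits called 53 of 12861, 31 of 12985 and 61 of 12891 lower. In 10 of the 11 both KO libraries lay below all controls, beside 19.3% of all genes tested. An unadjusted edgeR p under 0.05 with a lower mean in KO was found in 10, beside 9.48%. The median log2 fold change of the 11 was -0.68, beside 0.01 over all genes tested. Among the lymphoid genes Cd3e was at 0 throughout. The part of these marker genes in the results below was not tested. In such bulk samples, fewer cells of a type and less RNA per cell cannot be told apart.

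Foxo3 was the most abundant of the FOXO factors in these erythroid cells. Compared per length, as CPM per kilobase of exon, Foxo3 averaged 96.9 ± 15.6 in KO (SD, n = 2) and 98.7 ± 2.68 in control (SD, n = 3). Foxo4 averaged 39.7 ± 1.55 CPM per kilobase in KO and 43.4 ± 2.89 in control. Foxo1, the member best known from insulin-responsive tissues and lymphocytes, averaged 1.02 ± 0.04 CPM per kilobase in KO and 0.81 ± 0.08 in control. Foxo6, a brain-enriched relative, averaged 0.03 CPM per kilobase in either group. Foxo3 thus made up 68.5% and 72.1% of the summed FOXO level per kilobase in the KO libraries and 68.5% to 70.0% in the controls. The ranges of Foxo3, Foxo4, Foxo1 and Foxo6 did not overlap one another in either group.

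**Figure D1:**
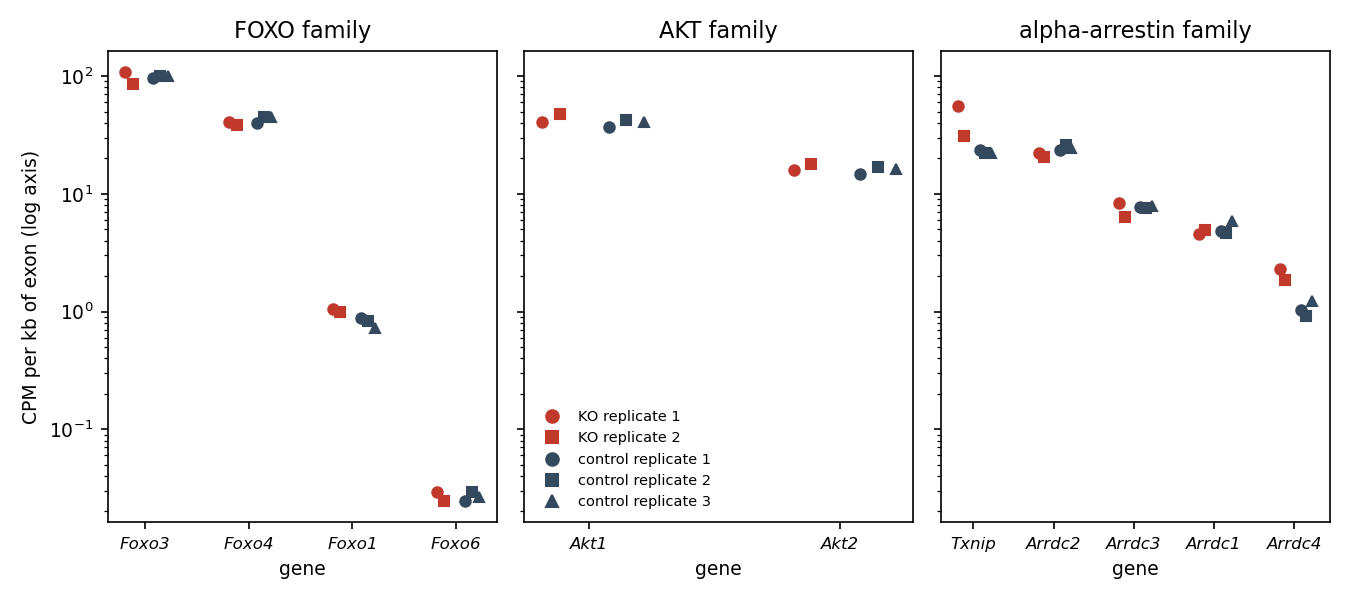
Levels of FOXO, AKT and alpha-arrestin genes in CPM per kilobase of merged exon (log axis), each point a library, KO in red to the left of control in dark blue. Foxo3 lies above Foxo4 and Foxo1 in every library, Akt1 above Akt2, and Txnip and Arrdc4 are the arrestin genes whose KO points lie above all controls.

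None of the FOXO factor genes passed the test between KO and control. Foxo3 stood at 817 and 651 CPM in KO replicates 1 and 2, against 724, 762 and 756 CPM in control replicates 1, 2 and 3. The KO libraries lay on opposite sides of the controls. Its log2 fold change was -0.03 ± 0.11 (SE), with a 95% interval of -0.26 to 0.21 and an edgeR adjusted p of 0.91; leaving out KO replicate 1 gave -0.22 and leaving out KO replicate 2 gave 0.12, so its direction rests on which KO library is kept. Foxo4 stood at 142 and 134 CPM in KO, against 140, 157 and 158 CPM in control, and the groups overlapped. Its log2 fold change was -0.13, with a 95% interval of -0.31 to 0.05 (edgeR adjusted p = 0.35), and -0.10 without control replicate 3.

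Foxo1 rested on 118 and 132 counts in KO and 91 to 118 counts in control. It stood at 9.07 and 8.55 CPM in KO, against 7.59, 7.24 and 6.31 CPM in control. Both KO libraries lay above all controls, an arrangement found in that direction in 21.9% of the 13000 genes tested. The log2 fold change of Foxo1 was 0.32 ± 0.14 (SE) and did not pass after adjustment over all genes (edgeR adjusted p = 0.21), although its own 95% interval, which is not adjusted, was 0.00 to 0.64. The antisense gene Gm20402, which shares 674 bp of exon with Foxo1, had 0 counts in every library.

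Of the 9 genes, 8 passed the filter on low counts, and Txnip and Tsc22d3 rose in KO while none fell. Among all 13000 genes tested, 5.15% rose and 1.83% fell. The set was chosen with earlier results of these data known, so its count is not independent of them. In edgeR 5 of the 8 had an unadjusted p under 0.05 with a higher mean in KO and 0 with a lower one, beside 14.3% and 9.48% of all genes tested. DESeq2 called 1 higher and 0 lower, and limma-voom 2 and 0. Over all genes, DESeq2 called 517 of 21077 higher and 341 lower, and limma-voom 612 of 13000 higher and 230 lower. These totals also stand beside the later list counts of both tools. The same 5 genes, Txnip, Tsc22d3, Foxo1, Irs2 and Ccng2, had both KO libraries above all controls, beside 21.9% of all genes tested. None of the 8 had both below, an arrangement found in 19.3% of all genes tested. The median log2 fold change of the 8 was 0.23, beside 0.01 over all genes tested.

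**Figure D2:**
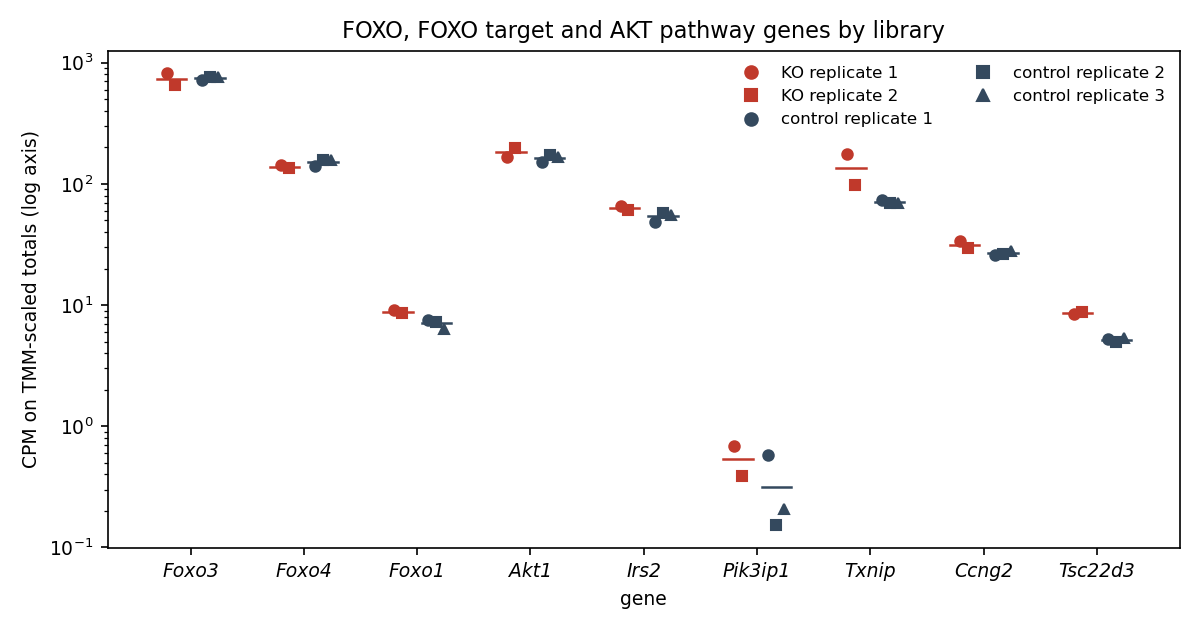
CPM on a log axis for the 9 genes, each point a library and each bar a group mean, KO in red to the left of control in dark blue. Txnip and Tsc22d3 stand higher in both KO libraries than in any control, Foxo3 and Akt1 overlap, and Pik3ip1 lies under 1 CPM throughout.

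Txnip encodes an alpha-arrestin that binds thioredoxin and removes glucose transporters from the cell surface; it is switched on by FOXO factors and by the glucose-sensing factor MondoA. It stood at 175 and 97.1 CPM in KO replicates 1 and 2, against 73.0, 68.9 and 69.1 CPM in control replicates 1, 2 and 3. Both KO libraries lay above all controls, and the controls were close together, whereas KO replicate 1 was 1.80 times KO replicate 2. Only 0.776% of the 8115 genes averaging at least 10 CPM had a ratio between the KO libraries as far from 1. Txnip rose 1.93-fold, with a log2 fold change of 0.95 ± 0.19 (SE), a 95% interval of 0.51 to 1.39 and an edgeR adjusted p of 0.022. The log2 fold change was 0.44 with KO replicate 1 left out and 1.31 with KO replicate 2 left out, so KO replicate 1 sets much of its size. The call was lost without control replicate 1, 2 or 3 (edgeR adjusted p of 0.09, 0.11 and 0.068) and with no filter on low counts (0.12). The antisense gene Gm15441 shares 606 bp of exon with Txnip and held 13 to 19 counts per library, against 904 to 2277 for Txnip; no source used here says if reads were counted by strand.

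Tsc22d3 encodes GILZ, a leucine zipper protein induced by glucocorticoids and by FOXO3. It stood at 8.38 and 8.75 CPM in KO replicates 1 and 2, against 5.28, 4.95 and 5.34 CPM in control replicates 1, 2 and 3. Unlike Txnip, its KO libraries were nearly level with each other, and both lay above all controls. These levels rest on 109 and 135 counts in KO and 65 to 82 counts in control. Tsc22d3 rose 1.65-fold, with a log2 fold change of 0.72 ± 0.13 (SE), a 95% interval of 0.42 to 1.03 and an edgeR adjusted p of 0.016. Its log2 fold change ranged from 0.68 to 0.74 when any 1 library was left out. The call was lost without control replicate 1, 2 or 3 (adjusted p of 0.079, 0.075 and 0.059), without KO replicate 2 (0.055) and in DESeq2 (0.073).

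**Figure D3:**
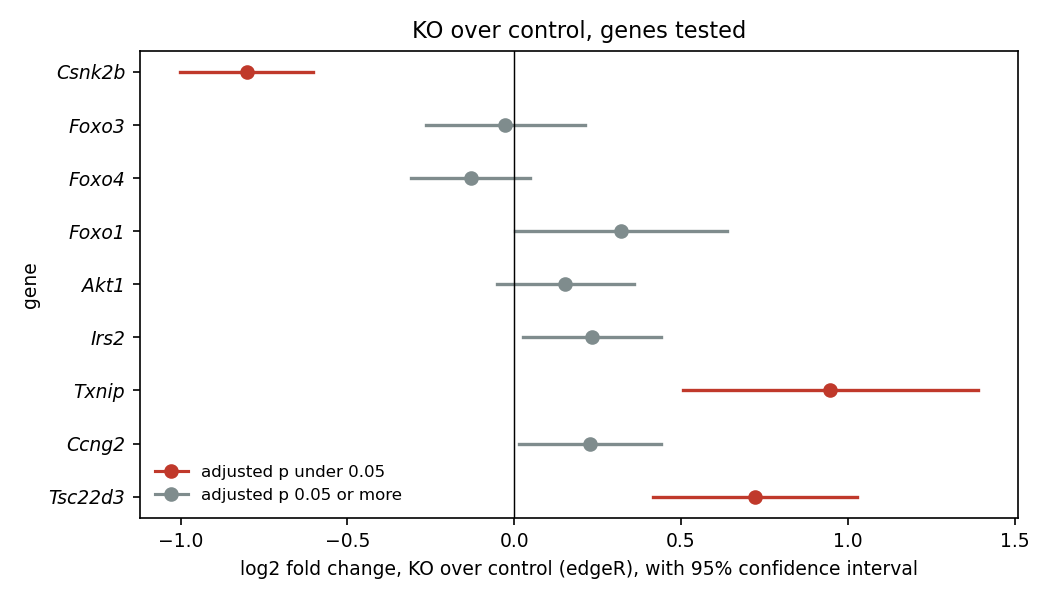
Log2 fold change of KO over control from edgeR with its unadjusted 95% confidence interval, for Csnk2b and the 8 genes tested. Csnk2b lies below 0, Txnip and Tsc22d3 lie above 0 with an adjusted p under 0.05 (red), and the other 6 genes did not pass (grey).

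Irs2, Ccng2 and Pik3ip1, the other FOXO targets of the set, did not pass or were not tested. Irs2, an adaptor that couples insulin receptors to PI3K, stood at 65.7 and 61.0 CPM in KO, against 48.5, 57.5 and 55.6 CPM in control. The groups did not overlap, and the log2 fold change was 0.23 ± 0.09 (SE), with a 95% interval of 0.03 to 0.44 and an edgeR adjusted p of 0.16. Ccng2, an atypical cyclin linked to cell cycle arrest, stood at 33.7 and 29.4 CPM in KO, against 26.0, 26.4 and 28.2 CPM in control. Its groups did not overlap either, although KO replicate 2 lay close to control replicate 3, and its log2 fold change was 0.23 ± 0.09 (SE), with a 95% interval of 0.02 to 0.44 (edgeR adjusted p = 0.18); it was 0.11 with KO replicate 1 left out and 0.32 with KO replicate 2 left out. Pik3ip1, a membrane inhibitor of PI3K, had 9 and 6 counts in KO, against 9, 2 and 3 in control. It was under the filter, its groups overlapped, and a difference was not detectable at this depth.

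Akt1, which encodes the kinase that CK2 is known to phosphorylate, did not pass the test. It stood at 166 and 197 CPM in KO replicates 1 and 2, against 152, 172 and 166 CPM in control replicates 1, 2 and 3. KO replicate 2 lay above all controls and KO replicate 1 among them. The log2 fold change was 0.15 ± 0.09 (SE), with a 95% interval of -0.05 to 0.36 (edgeR adjusted p = 0.34); it was 0.25 with KO replicate 1 left out and 0.02 with KO replicate 2 left out. Akt2, a relative named outside the naming rule, lay below Akt1 in every library and averaged 16.9 ± 1.36 CPM per kilobase in KO (SD, n = 2) and 16.0 ± 1.09 in control (SD, n = 3). Its log2 fold change was 0.08 (95% interval -0.11 to 0.28) and did not pass (edgeR adjusted p = 0.60).

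In order of level per kilobase in control, the 9 genes ran from Foxo3 over Foxo4, Akt1, Txnip, Irs2, Ccng2, Tsc22d3 and Foxo1 to Pik3ip1. In KO the means of Akt1, Txnip and Foxo4 were 44.3 ± 5.26, 43.6 ± 17.6 and 39.7 ± 1.55 CPM per kilobase (SD, n = 2), and Txnip was the highest of them in KO replicate 1 and the lowest in KO replicate 2. In control, Foxo4 and Akt1 averaged 43.4 ± 2.89 and 39.9 ± 2.46 CPM per kilobase (SD, n = 3); their ranges overlapped, but Foxo4 lay above Akt1 within each of the 3 libraries.

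The genes most like Txnip and Foxo3 across the 5 libraries were found by the root mean square difference of centred log2 CPM among 8072 other genes averaging at least 10 CPM. Nearest to Txnip were Stat2, a transcription factor of the interferon pathway, Trp53inp1, a p53 target linked to autophagy, and Plxna1, a semaphorin receptor gene, at distances of 0.07, 0.07 and 0.10. Stat2 stood at 77.2 and 39.1 CPM in KO, against 27.1 to 28.7 CPM in control, and Trp53inp1 at 24.8 and 12.7 CPM in KO, against 8.69 to 9.64 CPM in control. Like Txnip, these genes were highest in KO replicate 1 and next highest in KO replicate 2. Their shared order follows from the choice, which used these same libraries. Nearest to Foxo3, at a distance of 0.03 each, were the ubiquitin ligase genes Rnf19b and Huwe1 and Usp54, named for similarity to ubiquitin-specific proteases. Huwe1 stood at 606 and 483 CPM in KO, against 562 to 566 CPM in control, on either side of the controls as Foxo3 was. That likeness also follows from the choice.

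**Figure D4:**
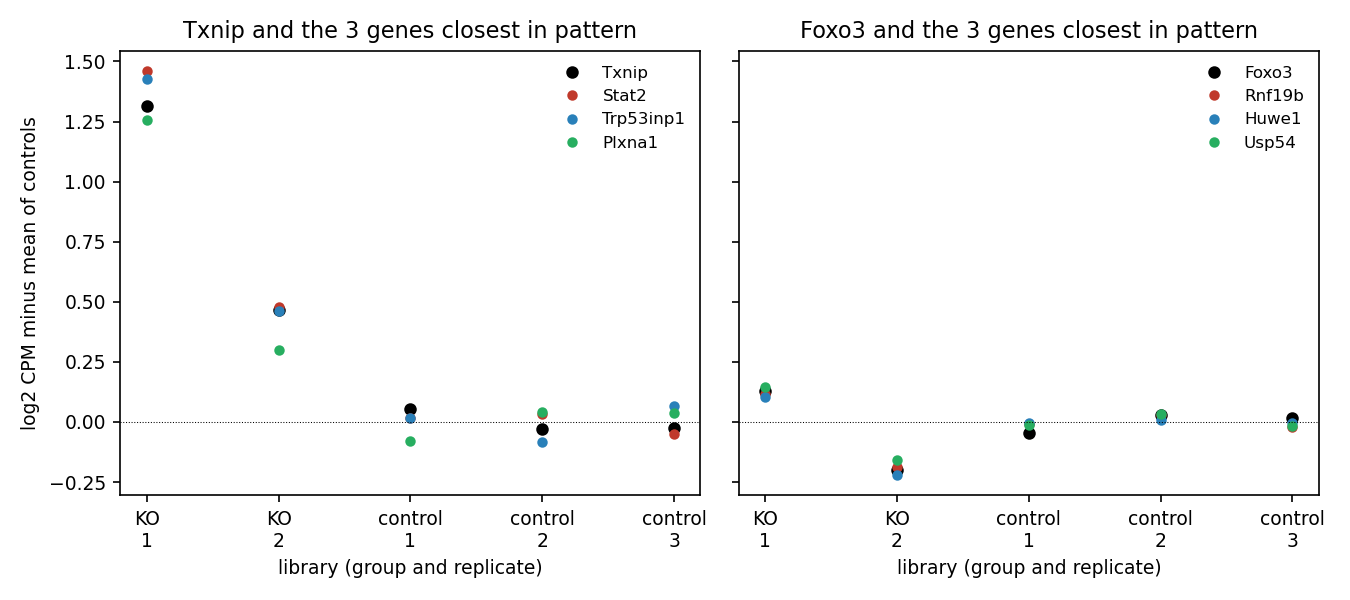
Log2 CPM minus the mean of the controls in each library for Txnip (left) and Foxo3 (right), each with the 3 genes closest in pattern. Txnip, Stat2, Trp53inp1 and Plxna1 are highest in KO replicate 1. Foxo3, Rnf19b, Huwe1 and Usp54 are above the controls in KO replicate 1 and below them in KO replicate 2. The genes were chosen for this likeness in the same libraries.

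Across the wider pathway, 136 genes in 10 lists were followed, of which 124 were tested. These lists include the 9 genes above. Of those tested, 16 rose and 4 fell in KO, beside 5.15% and 1.83% of all genes tested, and 104 did not pass. Without control replicate 1, 2 or 3 the number that rose was 8, 7 and 10 and the number that fell was 0. Over all genes, those fits called 230 of 12861, 210 of 12985 and 339 of 12891 higher. They called 53, 31 and 61 lower. The median log2 fold change of the 124 was 0.04, beside 0.01 over all genes. Upstream of AKT, Gab1, a docking protein that recruits PI3K to receptors, was the 1 of 10 receptor and adaptor genes to pass. It stood at 125 and 112 CPM in KO, against 147, 149 and 148 CPM in control, and fell by 0.32 ± 0.07 (SE) on the log2 scale (edgeR adjusted p = 0.034). Among 9 PI3K genes tested, the regulatory subunits Pik3r1 and Pik3r3 moved in opposite directions. Pik3r1 stood at 146 and 115 CPM in KO, against 183, 178 and 180 CPM in control, and fell by 0.47 ± 0.10 (SE) on the log2 scale (edgeR adjusted p = 0.025). Pik3r3, at a lower level, stood at 12.0 and 7.71 CPM in KO, against 5.79, 5.03 and 4.79 CPM in control, a log2 fold change of 0.91 ± 0.20 (SE, edgeR adjusted p = 0.03), which was 0.54 and no longer passed without KO replicate 1. The calls of Gab1, Pik3r1 and Pik3r3 were each lost without control replicate 1, 2 or 3 (adjusted p of 0.13, 0.11 and 0.12 at most), and that of Gab1 also without KO replicate 2. Pik3r1 had a log2 fold change of -0.67 with KO replicate 1 left out and -0.31 with KO replicate 2 left out.

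Beside AKT, Sgk3, an AKT-related kinase, was the 1 of 11 kinase genes to pass, at 124 and 112 CPM in KO, against 150, 142 and 149 CPM in control; it fell by 0.32 ± 0.07 (SE) on the log2 scale (edgeR adjusted p = 0.037), a call lost when any 1 control or KO replicate 2 was left out (adjusted p of 0.15 at most). Among 15 lipid phosphatase and AKT inhibitor genes 3 rose and none fell in edgeR, where 2 had an unadjusted p under 0.05 with a lower mean in KO; DESeq2 and limma-voom also called 3 and 0. Of all genes tested, 5.15% rose, 1.83% fell and 9.48% had an unadjusted p under 0.05 with a lower mean in KO. Trib3, a pseudokinase reported to bind AKT, stood at 49.0 and 83.3 CPM in KO, against 3.86, 5.18 and 3.95 CPM in control, a 15.4-fold rise (edgeR adjusted p = 4.9e-05). Phlda3, whose lipid-binding domain competes with AKT for the membrane, stood at 19.9 and 15.6 CPM in KO, against 3.60, 4.27 and 4.51 CPM in control, a 4.30-fold rise (edgeR adjusted p = 0.00026). Inpp4a, a phosphatase of PI3K lipid products, stood at 7.84 CPM in both KO libraries, against 4.18, 4.19 and 4.85 CPM in control, a 1.78-fold rise (edgeR adjusted p = 0.012) that missed the threshold without control replicate 1 or 2 (up to 0.074).

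Downstream of AKT, 2 of 15 substrate and mTORC1 genes rose and 0 fell, beside 5.15% and 1.83% of all genes tested. Eif4ebp1, which encodes a repressor of cap-dependent translation that mTORC1 phosphorylates, stood at 42.5 and 63.6 CPM in KO, against 24.4, 27.1 and 27.7 CPM in control, a 2.02-fold rise (edgeR adjusted p = 0.0063). That call was lost without control replicate 2 (0.0503) and with no filter on low counts (0.067). Mdm2, the p53 ubiquitin ligase gene and an AKT substrate, rose 1.27-fold (edgeR adjusted p = 0.044), and its call was lost in 9 of the 12 alternatives (adjusted p of 0.17 at most). Among 16 FOXO factor and handler genes tested 0 passed in edgeR. There, 2 had an unadjusted p under 0.05 with a higher and 4 with a lower mean in KO, beside 14.3% and 9.48% of all genes tested. Both KO libraries lay below all controls in 7 of the 16 and above them in 2, beside 19.3% and 21.9% of all genes tested. The median log2 fold change of the 16 was -0.09, beside 0.01 over all genes tested. For this list limma-voom called 0 and DESeq2 1, lower. Usp7, a deubiquitinase of FOXO4 and of MDM2 and the handler with the highest mean CPM, not corrected for length, stood at 786 and 667 CPM in KO, against 900.5, 868 and 856 CPM in control (-0.27 on the log2 scale, with an adjusted p of 0.12 in edgeR), and passed in DESeq2 (0.025) and without KO replicate 1 (0.0069).

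Of 30 FOXO target genes tested 7 rose and none fell in edgeR, where 11 had an unadjusted p under 0.05 with a higher and 2 with a lower mean in KO; DESeq2 called 6 and 1 and limma-voom 7 and 0. Of all genes tested, 5.15% rose and 1.83% fell, and 14.3% and 9.48% had an unadjusted p under 0.05 with a higher and a lower mean in KO. Of the full target list, 4 genes rose and 0 fell with any 1 control left out. Over all genes, those fits called 230 of 12861, 210 of 12985 and 339 of 12891 higher without control replicate 1, 2 and 3. Leaving out the genes already described, 5 of 26 rose: Cdkn1a, Bbc3, Gadd45a, Klf6 and Bnip3. The first 3 of these are also well-known targets of p53. Cdkn1a, for the cell cycle inhibitor p21, rose 15.7-fold (edgeR adjusted p = 2.1e-06), and Bbc3, for the cell death protein PUMA, rose 2.81-fold, at 13.1 and 10.3 CPM in KO, against 3.80, 4.57 and 4.09 CPM in control (edgeR adjusted p = 0.0017). Gadd45a, a stress-response gene, stood at 231 and 249 CPM in KO, against 156, 166 and 165 CPM in control, a 1.48-fold rise (edgeR adjusted p = 0.0027). Klf6, a Krüppel-like factor gene, and Bnip3, a mitophagy receptor gene, were named after their values were seen, and had log2 fold changes of 0.98 ± 0.13 and 1.13 ± 0.26 (SE). Bnip3, at 10.8 and 19.0 CPM in KO, against 5.85, 9.07 and 5.83 CPM in control, was no longer called with any 1 control left out (edgeR adjusted p of 0.15 at most), nor with KO replicate 2 left out (edgeR adjusted p = 0.20, log2 fold change 0.65). The median log2 fold change of the 30 was 0.21, beside 0.01 over all genes tested. Of the 38 genes listed, 8 were under the filter on low counts, among them the liver metabolic targets Pck1, G6pc and Igfbp1, and Trim63 had 0 counts in every library.

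Relatives and regulators of Txnip and Tsc22d3 were followed in 2 further lists. Of 10 genes of the TXNIP family and its regulators 2 rose, Txnip and its relative Arrdc4, and 0 fell. Among all genes tested, 5.15% rose and 1.83% fell, which also stands beside the second list. Arrdc4, another alpha-arrestin gene, stood at 9.22 and 7.45 CPM in KO, against 4.18, 3.73 and 4.99 CPM in control, a 1.93-fold rise (edgeR adjusted p = 0.015). Its call was lost without control replicate 1 or 2 (up to 0.081) and with no filter on low counts (0.063). Arrdc1, Arrdc2 and Arrdc3 did not pass, nor did Mlxip, the gene for MondoA. Txnip made up 60.1% and 48.0% of the summed alpha-arrestin level per kilobase in KO replicates 1 and 2, against 35.9% to 38.6% in control. Among 11 TSC22 family genes and glucocorticoid receptor targets, Tsc22d3 and Fkbp5 rose and Tsc22d1 fell. Fkbp5, a glucocorticoid-induced co-chaperone gene, stood at 56.1 and 68.9 CPM in KO, against 45.7, 42.0 and 42.9 CPM in control, a 1.44-fold rise (edgeR adjusted p = 0.016). Tsc22d1, a TSC22 relative, stood at 68.5 and 67.9 CPM in KO, against 85.0, 93.3 and 81.6 CPM in control, and fell by 0.34 ± 0.08 (SE) on the log2 scale (edgeR adjusted p = 0.037). The calls of Fkbp5 and Tsc22d1 were lost without control replicate 1, 2 or 3 (adjusted p of 0.088 and 0.14 at most), and that of Tsc22d1 also without KO replicate 2.

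**Figure D5:**
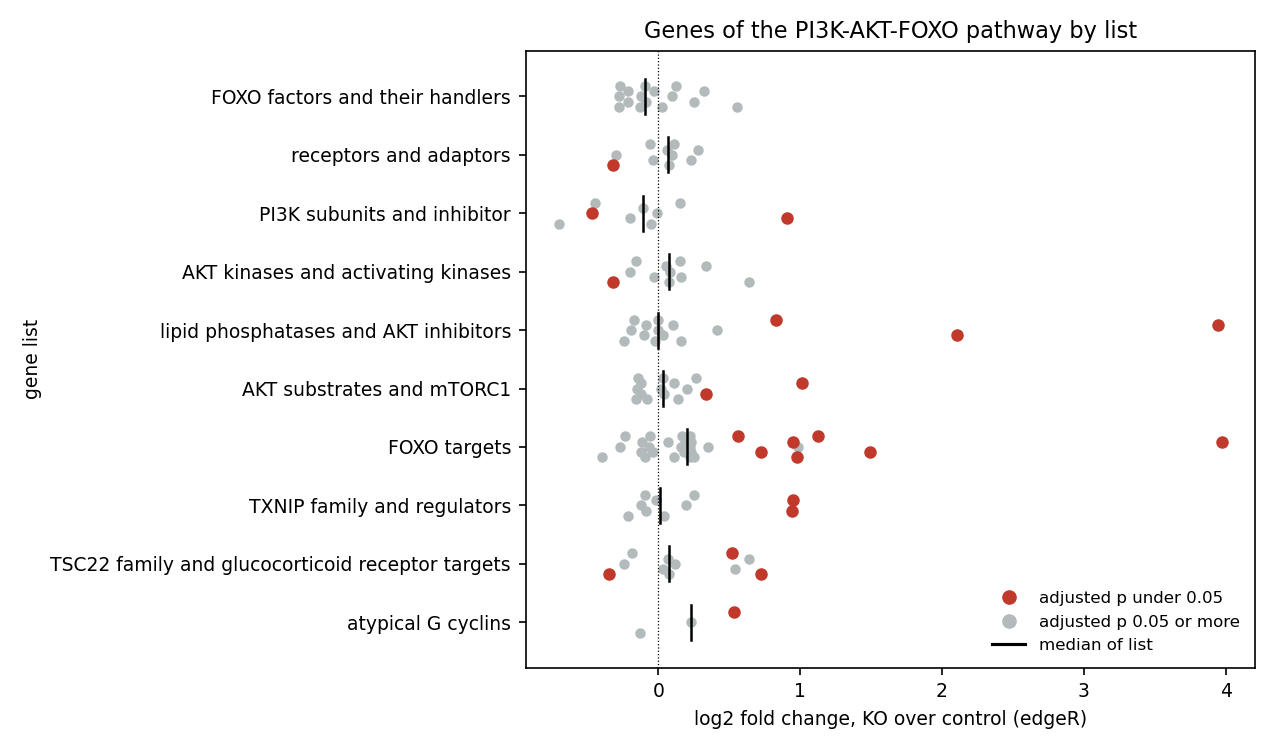
Log2 fold change of KO over control for the tested genes of each pathway list, with genes past an edgeR adjusted p of 0.05 in red, the others in grey and a black bar at the list's median. The medians lie between -0.11 and 0.23, and the red points above 1 are Trib3, Cdkn1a, Phlda3, Bbc3, Bnip3 and Eif4ebp1.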

How the data were processed

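RNA was measured by sequencing in 5 libraries, 2 KO and 3 control, grouped by their titles. Per the labels' protocols, mRNA was isolated on Dynabeads, prepared with an Ion Total RNA-Seq kit and sequenced on the Ion Proton platform. The submitters' processing notes name cutadapt, STAR, Bowtie, HTSeq and build mm10; versions, strand use and the handling of multiply mapped reads: not given in the sources used here. Values in the deposited table are raw counts per Ensembl gene, not normalised by the authors; 37607 of 39179 identifiers matched a symbol in GENCODE M21, whose merged exons gave lengths and whose build, GRCm38, is the assembly mm10 names.

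Genes kept by filterByExpr (13000) were tested with edgeR 4.0.16 in R 4.3.3 (TMM scaling, quasi-likelihood test, group as the only term), with Benjamini-Hochberg adjustment over all 13000 and a threshold of 0.05. The biological coefficient of variation common to all genes came to 8.67%. CPM are counts scaled to TMM-adjusted totals of 1000000. Standard errors came from the fold change and F statistic, and 95% intervals are unadjusted. This fit was checked on simulated data, where it missed most of the smallest changes simulated and its share of false calls was somewhat above the threshold. Alternatives were RLE scaling, leaving out globin genes, DESeq2 1.42.0, limma-voom 3.58.1, other filters, the replicate number as a block and each library left out in turn.

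The 9 genes and the pathway and marker lists were chosen with earlier results of these data known. The genes named were Csnk2b, the 9 genes, up to 3 genes with the smallest p past the threshold in each pathway list (or the 2 most abundant), and the 3 genes nearest in pattern to Foxo3 and to Txnip. Y-linked genes, Xist, Slc4a1, the antisense genes and the marker, family and untested genes named only with a level or a list are outside this rule. Some genes of the lists are counted in them but not reported by name here. Protein sequences were not used here.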

Additional observations from a re-analysis of the deposited data

How the results depend on the processing

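Scaling by RLE or without globin genes moved the median log2 fold change of all genes by at most 0.02 and called 2 of the set higher and 0 lower, as did limma-voom and the filter of 5 CPM in 2 libraries. With no low-count filter, 235 genes were higher and 53 lower in KO, 1 of the set was higher (Tsc22d3) and 9 pathway genes were higher and 0 lower. The calls of Txnip, Gab1, Pik3r1, Pik3r3, Sgk3, Eif4ebp1, Mdm2, Arrdc4, Fkbp5, Tsc22d1 and Bnip3 were lost there (edgeR adjusted p of 0.16 at most). DESeq2 called 1 of the set higher (Txnip) and 0 lower, and 15 pathway genes higher and 7 lower. Over all 21077 genes in its fit it called 517 higher and 341 lower. Leaving out 1 library gave 210 to 1709 genes higher and 31 to 1247 lower, 0 to 2 of the set higher and 0 lower, and 7 to 23 pathway genes higher and 0 to 23 lower. The high ends come from the fit without KO replicate 1. In either fit with 1 KO library, that library is assumed to vary like the controls. Why the fits differ in their counts was not tested. Without control replicate 1, 2 or 3 the set had 0 calls. Log2 fold changes that turned sign when 1 library was left out ranged from -0.22 to 0.12 for Foxo3, -0.21 to 0.11 for Rnf19b, -0.24 to 0.099 for Huwe1, -0.18 to 0.14 for Usp54 (0.012 without control replicate 2) and -0.0052 to 0.14 for Akt2, the low ends without KO replicate 1 (KO replicate 2 for Akt2) and the high ends without the other, and none of the 5 genes passed with all libraries. Of 420 single-gene values for 35 genes under these alternatives, 336 kept direction and side of the threshold, 72 missed it, 6 newly passed it and 6 turned sign; why was not tested. Replicate numbers 1 and 2 occur in both groups and number 3 only in control, but nothing in the labels says that they pair embryos. Deviations from the group mean correlated at 0.0085 for number 1 and 0.11 for number 2. The unmatched pair of KO replicate 1 and control replicate 3 stood at 0.119. The deviations of the 2 KO libraries mirror each other, so these values are not independent. With the number as a block 702 genes were higher and 171 lower, and 2 of the set were higher (Txnip, edgeR adjusted p = 0.0014, and Tsc22d3, 0.033). In that fit 16 pathway genes were higher and 2 lower, without Gab1 (0.089) and Sgk3 (0.095). The block takes up control replicate 3, the only library of its number, so the group difference there rests on numbers 1 and 2. Depth limits Pik3ip1, with at most 9 counts per library, and to a lesser degree Foxo1 and Tsc22d3.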

Other observations

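Ccng1, a relative of Ccng2 and a well-known p53 target, rose in KO, whereas Ccng2 and Ccni did not pass. Ccng1 stood at 111 and 108 CPM in KO replicates 1 and 2, against 77.0, 75.0 and 74.6 CPM in control replicates 1, 2 and 3, a 1.45-fold rise (edgeR adjusted p = 0.0027) that passed in all 12 alternatives. Per kilobase of exon, Ccng1 made up 42.4% and 45.0% of the summed level of these 3 atypical cyclins in KO and 32.2% to 34.5% in control. Cdkn1a, Trib3, Phlda3, Bbc3, Gadd45a and Klf6 also passed in all 12 alternatives, and Txnip and Tsc22d3 did not.

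Among autophagy genes of the FOXO target list, Ulk1, which starts autophagosome formation, stood at 325 and 248 CPM in KO and 226, 252 and 259 CPM in control, and Gabarapl1, which coats autophagosomes, at 56.2 and 65.5 CPM in KO and 52.9, 53.3 and 47.0 CPM in control; neither passed (edgeR adjusted p = 0.28 and 0.14). Of the antioxidant genes in that list, Cat, for catalase, stood at 680 and 584 CPM in KO and 641, 686 and 691 CPM in control, and Sod2, for mitochondrial superoxide dismutase, at 76.3 and 76.0 CPM in KO and 84.5, 82.9 and 79.5 CPM in control, and neither passed (edgeR adjusted p = 0.60 and 0.37). These 4 genes were chosen after their values were seen.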
